A study of Mus musculus with 8 samples.

Results

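The 9 transcription factors described here are Sox10, Olig1, Olig2, Myrf, Nkx6-2, Sox8, Sox2, Zfp488 and St18, a named list of oligodendrocyte lineage regulators that was looked up by symbol among the 18833 genes of a single-cell RNA-seq matrix of oligodendrocytes, in which all 9 were found. The matrix holds 12581 cells in 8 libraries from 4 female mice of a mixed CBA and C57Bl6J background, with a hippocampus library and a cortex library from each mouse. WT mice 1 and 4 were wild-type controls from heterozygous crossings, and KO mice 3 and 6 were homozygous for a germline deletion of the Fire super-enhancer in an intron of Csf1r, a deletion that leaves these mice without microglia while perivascular macrophages remain. The age was 1 month 18 days for mice 1 and 3, and 1 month 16 days for mice 4 and 6. The tissue labelled cortex was the rest of the left hemisphere after the hippocampus was taken, without olfactory bulb and cerebellum. The deletion is present in every cell of the KO mice and not in oligodendrocytes alone. Each genotype is represented by 2 mice, so that p-values between the genotypes rest on the spread between 2 animals in a group.

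Oligodendrocytes wrap axons in myelin, and their identity is held by a small network of transcription factors. Sox10, an HMG-box factor, and Olig2, a basic helix-loop-helix factor, act from the progenitor stage onwards, and Myrf switches on the myelin genes when a progenitor differentiates. The other members act around these: Olig1 is the paralogue of Olig2 and favours myelination, Sox8 is a close relative of Sox10 with overlapping roles, Nkx6-2 is a homeodomain factor of maturing oligodendrocytes, Zfp488 is a zinc-finger partner of Olig2, St18 is a zinc-finger protein of the Myt family, and Sox2 is best known as a stem and progenitor cell factor that stays detectable in later cells of the lineage.

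In the GENCODE annotation of GRCm38, the build of the deposited counts, all 9 are protein-coding genes. Sox10 lies at chr15:79154908-79165240 on the minus strand, Myrf at chr19:10208272-10240748 on the minus strand and Nkx6-2 at chr7:139579376-139582797 on the minus strand. Olig2 (chr16:91225457-91228677) and Olig1 (chr16:91269772-91271933) are neighbours on the plus strand. Sox8 is at chr17:25565892-25570686 on the minus strand, Zfp488 at chr14:33967070-33978764 on the minus strand and St18, the longest locus, at chr1:6487231-6860940 on the plus strand. Sox2 (chr3:34650405-34652461, plus strand) sits inside the same-strand noncoding gene Sox2ot, with which it shares 0 of its 2057 exonic bases. Sox2ot was detected in 98.9% to 100% of cells per library, and the part of its RNA in the Sox2 counts was not tested. Genes on the opposite strand overlap exons of Olig1 over 157 bases, of Nkx6-2 over 246 bases and of Sox8 over 329 bases.

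Over all oligodendrocytes, Nkx6-2 was the member whose mice did not overlap between the genotypes (below), and its promoter is shown for that reason. The RefSeq table gives upstream sequence for 5 of the 9 members. The 250 bases upstream of the Nkx6-2 start (GRCm38.p6, chr7:139582798-139583047, minus strand, 5′ to 3′) hold no annotated exon, and the capitals mark CCAAT, the CCAAT-box core, on either strand.
Nkx6-2: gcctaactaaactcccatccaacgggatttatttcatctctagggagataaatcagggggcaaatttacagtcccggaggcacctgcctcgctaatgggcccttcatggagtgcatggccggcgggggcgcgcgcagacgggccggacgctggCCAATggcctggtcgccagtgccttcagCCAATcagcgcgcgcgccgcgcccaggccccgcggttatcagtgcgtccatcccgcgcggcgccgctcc
CCAAT occurred 2 times in this window and was present in 33.8% of the 32851 RefSeq promoter windows of the same length. The other motifs searched on both strands were ACAAAG, a SOX factor core found in 16.5% of windows, CAGCTG, an E-box found in 4271 windows, and CTGGCAC or CTGGTAC, the MYRF core, found in 5.93%. None of these 3 had a match in the Nkx6-2 window.

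Before the members are compared, the libraries need a short account. They held 904 to 2784 cells with median depths of 9377 to 13726 UMIs (unique molecular identifiers, each standing for a captured transcript), and 21 barcodes occurred in more than 1 library. Mbp, Mag and Mog, which encode myelin proteins, were detected in each cell of the 8 libraries. Csf1r, whose enhancer was deleted, had a UMI in 5.31% to 10.2% of cells in the WT libraries and in 0.00% to 0.155% in the KO libraries. The summed level of the 8 microglial markers was 0.565 to 1.32 UMIs per 10000 in WT and 0.151 to 0.214 in KO libraries, and the part of other cells' RNA in the results below was not tested. The 4 neuronal markers summed to 0.112 to 0.229 in WT and 0.229 to 0.414 in KO libraries. Tubb3, the neuronal tubulin among them, was at 0.06 and 0.04 in the WT and 0.16 and 0.11 in the KO mice on the log2 scale. Its difference was 0.06 in Oligo2, 0.01 in Oligo3 and 0.11 in Oligo4. Snap25 overlapped, at 0.05 and 0.03 in the WT and 0.04 and 0.05 in the KO mice. Rbfox3 had a UMI in 0.97% to 1.34% of cells in WT and 0.74% to 1.44% in KO libraries. The summed level of the 8 astrocyte markers overlapped between WT (1.99 to 2.37) and KO (1.61 to 2.29). Of the 6 that were tested, 2 had a higher and 4 a lower mean in KO mice. Gfap, the highest by difference, was at 0.05 and 0.06 in the WT and 0.11 and 0.10 in the KO mice on the log2 scale. Slc1a2, the lowest, was at 0.63 and 0.64 in the WT and 0.48 and 0.64 in the KO mice. The 3 erythrocyte genes that passed the filter had higher means in KO mice, none passing the test, with Hbb-bs, a haemoglobin gene, at 0.19 and 0.12 in the WT and 0.23 and 0.31 in the KO mice. The summed level of the 4 erythrocyte markers overlapped, at 0.316 to 9.94 UMIs per 10000 in WT and 0.823 to 8.78 in KO libraries. Among the 4 cortex libraries, that of KO mouse 3 was the low outlier by Dixon's ratio for 111 of 9257 genes and the high outlier for 83. The other cortex libraries were low for 20 to 42 genes and high for 24 to 77. Among the 4 KO libraries it was low for 56 and high for 88, against 16 to 41 and 11 to 37 for the others. The hippocampus library of WT mouse 1 was low for 91 genes among the 4 WT libraries.

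The members were present throughout. The median cell held a UMI of 7 of the 9 members in each of the 8 libraries, no cell lacked all 9, and only 1 cell in the hippocampus library of WT mouse 1 and 1 cell in that of KO mouse 3 had no UMI of Sox10, Olig1 or Olig2. Zfp488 was the exception: it had a UMI in 3.62% to 9.40% of cells per library. The matrix holds no other cell type in which a background share could be read, so that these low shares cannot be told apart from free RNA. Levels below are the mean over cells of log2(UMI count divided by the cell's size factor, plus 1), unless another scale is named.

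**Figure D1:**
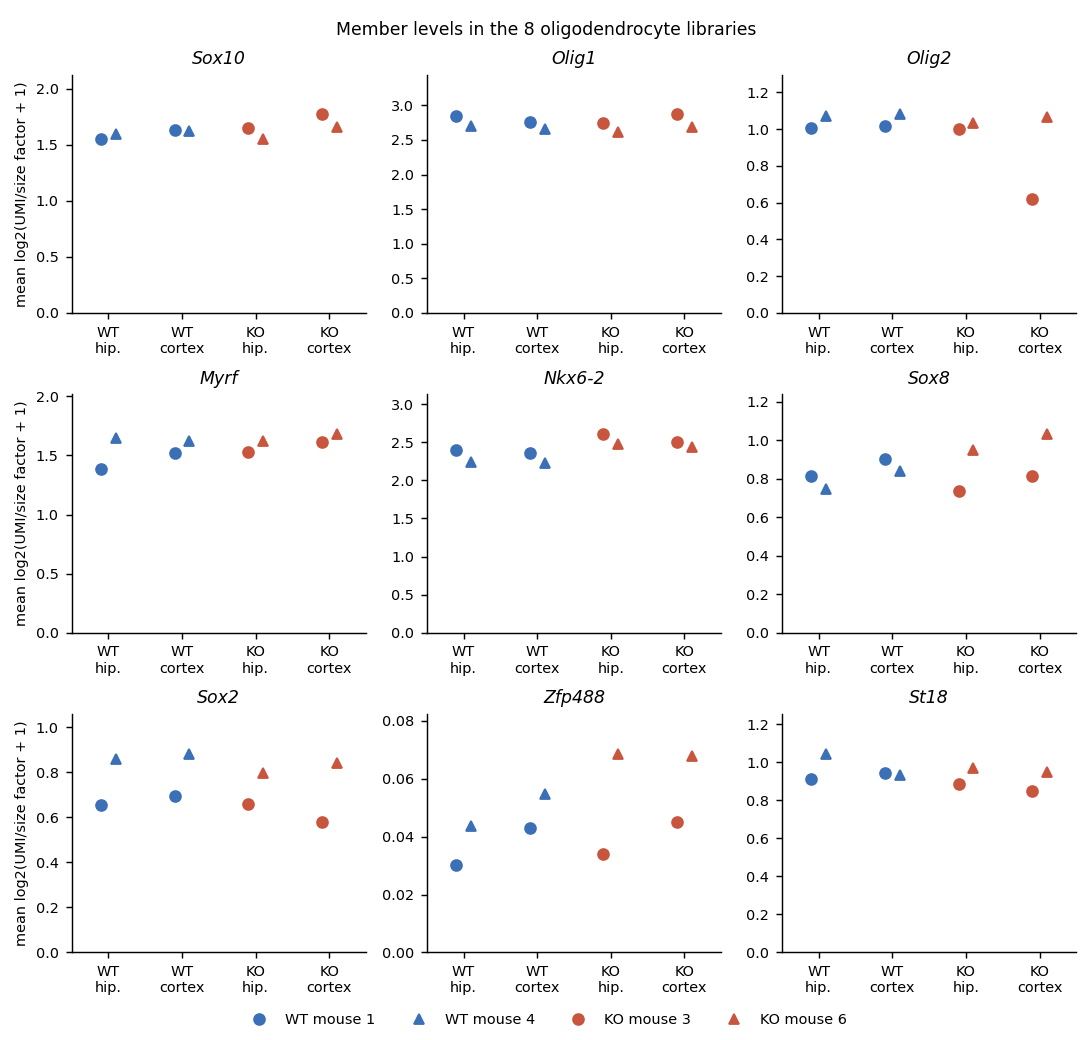
Mean log2 level (vertical axis, from 0, log2 scale) of each of the 9 members in the 8 libraries. Circles are WT mouse 1 and KO mouse 3, triangles are WT mouse 4 and KO mouse 6, blue is WT and red is KO. The 4 KO points of Nkx6-2, at 2.44 to 2.61, lie above the 4 WT points at 2.23 to 2.40, and the cortex point of KO mouse 3 for Olig2, at 0.62, lies apart from the other 7.

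Among the factors that specify the lineage, Sox10 differed little between libraries. Its level was 1.55 and 1.63 in hippocampus and cortex of WT mouse 1, 1.60 and 1.62 in WT mouse 4, 1.65 and 1.77 in KO mouse 3, and 1.55 and 1.66 in KO mouse 6. The lowest and the highest mouse of both genotypes overlapped. A Sox10 UMI was found in 91.9% to 98.7% of cells per library, and in an expected 74.8% to 80.0% after each cell was thinned to 5000 UMIs.

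Olig1 was detected in 99.3% to 100% of cells. Its level in hippocampus and cortex was 2.84 and 2.76 in WT mouse 1, 2.70 and 2.66 in WT mouse 4, 2.74 and 2.87 in KO mouse 3, and 2.62 and 2.69 in KO mouse 6. The mice thus ranked by age group and not by genotype: mice 1 and 3 were higher than mice 4 and 6.

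Olig2 had 1 library that differed from all the others. Its level was 1.01 and 1.02 in hippocampus and cortex of WT mouse 1, 1.07 and 1.08 in WT mouse 4, 1.00 and 0.62 in KO mouse 3, and 1.03 and 1.07 in KO mouse 6. In UMIs per 10000, the cortex library of KO mouse 3 was at 0.809 against 1.57 to 1.72 in the other 7. The share of cells with an Olig2 UMI, thinned to 5000 UMIs per cell, was 32.6% in that library and 52.1% to 55.3% in the others. The shortfall ran through every cluster of that library: its Olig2 level was 0.55 in Oligo1, 0.47 in Oligo2, 0.70 in Oligo3 and 0.71 in Oligo4, below the same mouse's hippocampus library at 0.91, 0.81, 1.09 and 1.21. Olig1, the neighbouring paralogue, was at its highest of the 8 libraries there (2.87). By the gap to the next lowest library, Olig2 ranked 10th from the bottom of 9257 genes in that library, and the widest gap was that of Rtn4, which encodes a membrane protein of the endoplasmic reticulum and myelin and was singled out after its values were seen (3.28 against 3.96 to 4.18).

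Myrf, the factor that turns on myelin genes, had library levels of 1.39 to 1.65 in WT and 1.53 to 1.68 in KO mice. Nkx6-2 had levels of 2.40 and 2.35 in hippocampus and cortex of WT mouse 1, 2.25 and 2.23 in WT mouse 4, 2.61 and 2.50 in KO mouse 3, and 2.47 and 2.44 in KO mouse 6. All KO libraries were thus above all WT libraries for Nkx6-2. In UMIs per 10000, Nkx6-2 was 5.49 ± 0.472 (SD, n = 2 mice) in WT and 6.49 ± 0.208 in KO mice.

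Sox8 split the mice in another way. Its level was 0.81 and 0.90 in hippocampus and cortex of WT mouse 1, 0.74 and 0.84 in WT mouse 4, 0.73 and 0.81 in KO mouse 3, and 0.95 and 1.03 in KO mouse 6. KO mouse 3 lay below WT mouse 1 of the same age and KO mouse 6 lay above WT mouse 4, in both tissues.

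Sox2 ranged from 0.65 to 0.88 in WT and from 0.58 to 0.84 in KO libraries, and was lower in mice 1 and 3 than in mice 4 and 6. St18 ranged from 0.91 to 1.04 in WT and from 0.85 to 0.97 in KO libraries. Zfp488, the member with the lowest level, ranged from 0.030 to 0.055 in WT and from 0.034 to 0.069 in KO libraries. For these members the libraries of WT and KO mice overlapped.

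The first comparison asked whether the absence of microglia was accompanied by a different level of the lineage factors over all oligodendrocytes. Nkx6-2 was 0.20 higher in KO than in WT mice on the log2 scale (standard error 0.067, 95% interval -0.0076 to 0.40). With mice of the same age paired, its interval was 0.14 to 0.25 (limma, adjusted p = 0.362). On the log2 scale, the Nkx6-2 difference was the widest of the 9. On other scales it was not: edgeR on UMI sums gave 0.34 for Zfp488 and 0.25 for Nkx6-2, and log2 of the mean value plus 0.1 gave -0.233 for Olig2 and 0.226 for Nkx6-2. Olig2 was at the other end, with -0.11 (interval -0.41 to 0.18), a value that became -0.018 when the cortex library of KO mouse 3 was left out. The other differences were 0.06 for Sox10 (-0.07 to 0.19), -0.01 for Olig1 (-0.24 to 0.22), 0.06 for Myrf (-0.18 to 0.31), 0.06 for Sox8 (-0.21 to 0.33), -0.05 for Sox2 (-0.39 to 0.28), 0.01 for Zfp488 (-0.04 to 0.06) and -0.05 for St18 (-0.18 to 0.09). A mean of log2 values understates the change of genes with low counts: edgeR gave -0.11 for Sox2 and 0.12 for Sox8, and the value of Zfp488 on the scale with 0.1 added was 0.11. None of the 9 passed the test (limma with Benjamini-Hochberg adjustment over 9257 genes, adjusted p = 0.9997 for each). Of all 9257 genes tested, 0 passed (0% called), 209 had an unadjusted p under 0.05, and edgeR's quasi-likelihood test on UMI sums called 8, none of them a member. With 2 mice against 2, an exact two-sided permutation test of a single gene cannot go below p = 0.333.

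Read without a test, 1 of the 9 members, Nkx6-2, had both KO mice above both WT mice (2.55 and 2.46 against 2.38 and 2.24), where 11.9% of all genes tested did so. No member had both KO mice below both WT mice, where 8.0% of all genes did. The median difference of the 9 members was 0.01 beside 0.0013 over all genes tested.

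**Figure D2:**
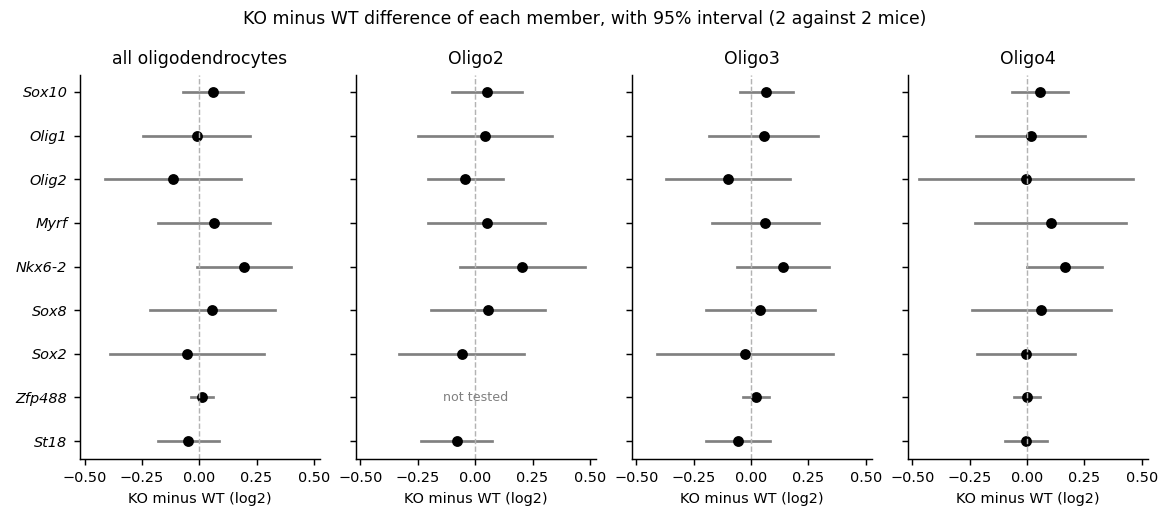
KO minus WT difference of the mean log2 level (horizontal axis) for each member over all oligodendrocytes and within Oligo2, Oligo3 and Oligo4; points are limma estimates from 2 KO and 2 WT mice and lines are 95% intervals. Nkx6-2 lies to the right of 0 in each panel (0.20, 0.21, 0.14 and 0.16). Every interval of this fit, which does not pair mice by age, includes 0. Zfp488 was below the detection filter in Oligo2.

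The deposited metadata name 4 batches, without saying of what. Each held a KO and a WT library of the same tissue and the same age, so that the differences could be read within a batch. For Nkx6-2 the KO library was higher in 4 of 4 batches: by 0.21 in hippocampus and 0.14 in cortex for mice 1 and 3, and by 0.23 in hippocampus and 0.21 in cortex for mice 4 and 6. Zfp488 was also higher in 4 of 4, by 0.0021 to 0.025, which as log2 ratios of UMIs per 10000 was 0.15, 0.04, 0.78 and 0.28. After thinning to 5000 UMIs, its share of cells was lower in the KO library in 1 batch, the cortex pair of mice 1 and 3, with a difference of -0.0144 percentage points. Among all genes tested 13.4% were higher in the KO library in every batch. Olig2 was lower in 4 of 4 batches, by 0.40 in the cortex pair of mice 1 and 3 and by 0.0036 to 0.039 in the others, where 9.90% of all genes were lower in every batch. On other scales Olig2 was not lower throughout: its log2 ratio of UMIs per 10000 was 0.017 in the hippocampus pair of mice 4 and 6, and its thinned share differed by 0.0070 percentage points in the hippocampus pair of mice 1 and 3. Sox10 and Myrf were higher in 3 of 4 batches (-0.04 to 0.14 and -0.03 to 0.14). Sox2 and St18 were lower in 3 of 4 (-0.12 to 0.0040 and -0.10 to 0.01). Olig1 and Sox8 were divided 2 against 2, Olig1 by tissue and Sox8 by pair of mice: the Sox8 differences were -0.08 and -0.09 for mice 1 and 3 and 0.20 and 0.19 for mice 4 and 6. The 2 libraries of a mouse are not independent animals, and batch and age of the mice cannot be told apart. The study describes the batch of the cortex libraries of mice 4 and 6 as of poorer quality, and the Nkx6-2 difference there lay within the range of the other batches.

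**Figure D3:**
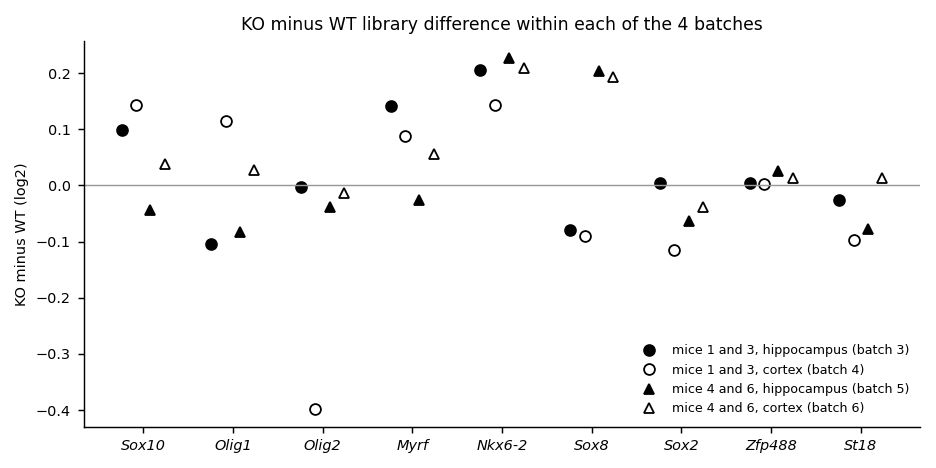
KO minus WT difference of the library mean (vertical axis, log2 scale) within each of the 4 batches for the 9 members. Circles are the pair of mice 1 and 3, triangles the pair of mice 4 and 6, filled symbols hippocampus and open symbols cortex; the 4 Nkx6-2 points lie between 0.14 and 0.23, the open circle of Olig2 lies at -0.40, and the Sox8 points lie on either side of 0 by pair of mice.

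The same comparison was made within the deposited clusters Oligo2, Oligo3 and Oligo4. Oligo1 held 0 to 6 cells in each WT library and 98 to 859 in each KO library, so that no comparison of the genotypes was possible there. Nkx6-2 was 0.21 higher in KO mice in Oligo2 (interval -0.07 to 0.48), 0.14 in Oligo3 (-0.06 to 0.34) and 0.16 in Oligo4 (-0.00045 to 0.33). With a mouse left out, the Nkx6-2 difference ranged from 0.11 to 0.31 in Oligo2, from 0.07 to 0.20 in Oligo3 and from 0.10 to 0.23 in Oligo4. With the Oligo1 cells left out, its difference over all remaining cells was 0.16 (-0.04 to 0.36). Both KO mice were above both WT mice for Nkx6-2 in Oligo2 (2.53 and 2.39 against 2.35 and 2.15), in Oligo3 (2.50 and 2.39 against 2.38 and 2.24) and in Oligo4 (2.56 and 2.64 against 2.50 and 2.37).

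Sox10 was the other member with such an order, in Oligo3, where KO mice 3 and 6 were at 1.73 and 1.64 and WT mice 1 and 4 at 1.60 and 1.63, a difference of 0.07 (interval -0.05 to 0.18) that ranged from 0.022 to 0.11 with a mouse left out. The counts of members with both KO mice higher were thus 1 of 8 in Oligo2 (11.2% of all genes tested), 2 of 9 in Oligo3 (8.74%) and 1 of 9 in Oligo4 (14.2%). No member had both KO mice lower, where 9.93%, 7.68% and 14.2% of genes did in Oligo2, Oligo3 and Oligo4. Olig2 differed by -0.04 in Oligo2, -0.10 in Oligo3 and -0.0046 in Oligo4, and without the cortex library of KO mouse 3 by 0.04, -0.0035 and 0.12. No member passed limma's test in a cluster (adjusted p = 0.9996 to 0.9999). The test called 0 of 9292 genes in Oligo2, 0 of 9135 in Oligo3 and 0 of 9381 in Oligo4 (0% each), with 139, 103 and 282 genes at an unadjusted p under 0.05, and edgeR called 4, 3 and 25 genes, again without a member.

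Levels by cluster are given as a description, since the clusters come from the expression of the same cells. Olig1 and Zfp488 were ordered Oligo2, Oligo3, Oligo4 from low to high in WT mice, without overlap between mice: Olig1 was at 2.50 ± 0.059, 2.79 ± 0.097 and 2.97 ± 0.15 (SD, n = 2 mice each), and Zfp488 at 0.017 ± 0.0071, 0.047 ± 0.0081 and 0.075 ± 0.00085. The Zfp488 levels rest on few counts, with 3 to 8 UMIs per WT library in Oligo2 and 7 to 17 in Oligo4. Olig2 was low in Oligo2 (0.75 ± 0.029) and did not differ beyond the spread between Oligo3 (1.11 ± 0.038) and Oligo4 (1.17 ± 0.14). In KO mice the order of the Olig1 means was the same (2.54, 2.84 and 2.98), and Oligo2 was below Oligo3 in 4 of 4 mice for Olig1, Olig2, Zfp488, Sox10, Myrf, Sox2 and St18, 7 of the 9 members, where 19.2% of all 9257 genes were lower in 4 of 4.

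Sox8 and Nkx6-2 had other profiles. Sox8 was higher in Oligo2 than in Oligo3 in 4 of 4 mice, by 0.05 to 0.08 (1 of the 9 members, and 28.9% of all genes), and higher in Oligo4 than in Oligo3 in 4 of 4, by 0.09 to 0.25. Nkx6-2 was lower in Oligo2 than in Oligo3 in 3 of 4 mice (-0.09 to 0.03), and Oligo4 was above Oligo3 in 4 of 4 by 0.06 to 0.24. St18 was likewise highest in Oligo4, above Oligo3 in 4 of 4 mice by 0.04 to 0.15. With Olig1, 4 of the 9 members were higher in Oligo4 than in Oligo3 in 4 of 4 mice, where 24.2% of all genes were. For Myrf and Sox10, clusters next to each other in the order of group means overlapped between mice in both genotypes. The group means were 1.45 to 1.66 for Myrf and 1.54 to 1.68 for Sox10. Clusters further apart did not always overlap. Sox10 in WT mice was at 1.53 and 1.56 in Oligo2 and 1.60 and 1.63 in Oligo3. Myrf in KO mice was at 1.51 and 1.61 in Oligo2 and 1.62 and 1.70 in Oligo1.

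Oligo1, the cluster made almost wholly of KO cells, was set beside the other clusters of KO mice 3 and 6. Nkx6-2 had its highest group mean there, 2.66 ± 0.052, which was 0.17 and 0.24 above Oligo2 and 0.20 and 0.23 above Oligo3 of the same mice, while Oligo4 (2.60 ± 0.057) overlapped with it. Myrf was 0.03 and 0.04 above Oligo3 and 0.10 and 0.11 above Oligo2. Olig1 in Oligo1 (2.55 ± 0.14) did not differ beyond the spread from Oligo2 (2.54 ± 0.18) and was 0.26 and 0.31 below Oligo3. Olig2 in Oligo1 was 0.09 and 0.23 above Oligo2 and 0.12 and 0.16 below Oligo3. Sox10 in Oligo1 was 0.07 and 0.09 above Oligo2 of the same mouse and overlapped with Oligo3 and Oligo4. Zfp488 in Oligo1 was 0.011 and 0.024 above Oligo2 and 0.025 and 0.032 below Oligo3 of the same mouse. Sox2 was below Oligo3 and Oligo4 in both mice, and Sox8 was below Oligo2 and Oligo4 in both. St18 was at 0.93 and 0.94, above Oligo2 at 0.81 and 0.91 and below Oligo4 at 1.00 and 1.07.

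**Figure D4:**
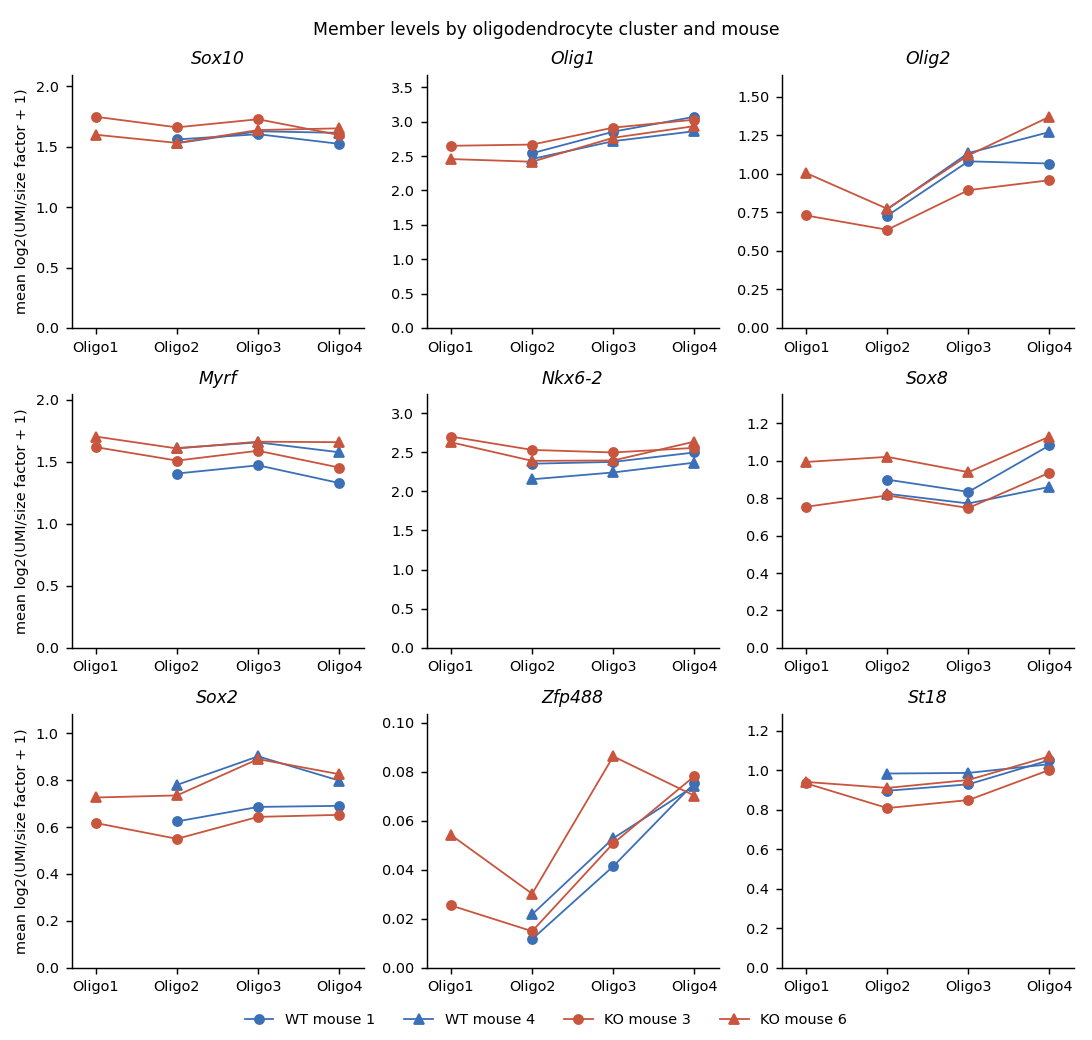
Mean log2 level (vertical axis, from 0) of each member by deposited cluster for each mouse, averaged over its 2 tissues; lines join the clusters of a mouse, blue is WT, red is KO, and the WT mice have no Oligo1 point because fewer than 20 such cells were present per library. Olig1 lies lower in Oligo2 than in Oligo4 in every mouse, and Nkx6-2 in Oligo1 of the KO mice lies at 2.63 and 2.70.

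Hippocampus and cortex were compared over all 8 libraries. Sox8 was lower in hippocampus in 4 of 4 mice by nearly the same amount: the hippocampus minus cortex difference was -0.09 in WT mouse 1, -0.09 in WT mouse 4, -0.08 in KO mouse 3 and -0.08 in KO mouse 6. The mean difference was -0.09 (interval -0.24 to 0.07) and did not pass the test (limma, adjusted p = 0.9991). With the mouse as a block, the same difference had an interval of -0.10 to -0.07 and limma's adjusted p was 0.0583, the 4th lowest p of the 9257 genes. Within Oligo3 cells alone the Sox8 difference was -0.08, close to the value over all cells. Without the cortex library of KO mouse 3 it was -0.13, with the Sox8 hippocampus library of that mouse kept.

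Most genes leaned the same way on the mean log2 scale, where 5966 of 9257 were lower in hippocampus. The median difference over all genes was -0.0051 on that scale. It was 0.00039 with edgeR and -0.00037 with log2 of the mean value plus 0.1, so that the lean depended on the scale. Sox10 was also lower in hippocampus in 4 of 4 mice, by 0.02 to 0.12 (mean -0.08, interval -0.16 to 0.0015, limma adjusted p = 0.929, and 0.192 with the mouse as a block). Nkx6-2 was higher in hippocampus in 4 of 4 mice, by 0.01 to 0.11. Thus 2 of the 9 members were lower in hippocampus in 4 of 4 mice, where 18.6% of all genes were, and 1 was higher, where 6.78% were. Olig2 was 0.08 higher in hippocampus on average (-0.15 to 0.32), and without the cortex library of KO mouse 3 the difference was -0.03. None of the 9 members passed, where 0 of 9257 genes did (0% called by limma, 490 with an unadjusted p under 0.05, and 0 called by edgeR). Each batch held a single tissue, so that tissue and batch cannot be told apart.

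The KO minus WT difference was last compared between the tissues. For Olig1 the KO library was lower in hippocampus by 0.10 and 0.08 and higher in cortex by 0.12 and 0.03. The hippocampus minus cortex difference of Olig1 was thus 0.09 and 0.04 in the WT mice and -0.13 and -0.07 in the KO mice, and the difference between the genotypes in it was -0.16 (interval -0.25 to -0.08). This did not pass the adjustment over 9257 genes (limma, adjusted p = 0.792). In hippocampus Oligo3 cells, Olig1 was at 2.87 and 2.75 in the KO and 2.87 and 2.74 in the WT mice. In cortex Oligo3 cells it was at 2.955 and 2.78 in the KO and 2.83 and 2.69 in the WT mice. Olig1 in hippocampus Oligo2 cells was at 2.62 and 2.37 in the KO and 2.61 and 2.48 in the WT mice. In cortex Oligo2 cells it was at 2.71 and 2.46 in the KO and 2.47 and 2.44 in the WT mice. Oligo4 gave 2.94 and 2.85 in KO and 3.06 and 2.87 in WT hippocampus. Its cortex values, over 38 to 97 cells per library, were 3.11 and 3.02 in KO and 3.08 and 2.85 in WT mice. Oligo1, where Olig1 was low, held 859 of 2784 and 448 of 1934 KO hippocampus cells. In KO cortex, it held 147 of 1074 and 98 of 904 cells. The part of this cell mix in the Olig1 values was not tested. For Sox10, the genotype difference in hippocampus minus cortex was -0.06 (-0.13 to 0.0027, limma adjusted p = 0.818). No gene passed (0 of 9257, 0% called by limma), with 574 at an unadjusted p under 0.05.

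Genes whose pattern was most like that of a member were sought over 26 means, each of a library and cluster with at least 50 cells, among 9256 genes. The points share libraries and clusters, and the coefficients are a description. The 100th most alike gene of a member still had an r between 0.586 (Sox10) and 0.787 (Olig2), so that the genes named here are not particular to it. Olig2 was most like Soga1, Nudt4 and Asphd2 (Pearson r = 0.905, 0.901 and 0.900). Olig1 was most like Ptma, Ckb and Bin1 (0.891, 0.888 and 0.883), Nkx6-2 like Cfl2, H3f3b and Ankrd9 (0.877, 0.839 and 0.83), Zfp488 like Kndc1, Fads1 and Phldb1 (0.869, 0.865 and 0.856) and St18 like Asxl2, Atp8a1 and Gid4 (0.866, 0.851 and 0.845). Sox2 was most like Cdc42bpa, Neo1 and Pdgfc (0.843, 0.843 and 0.835) and Sox8 like Mobp, Glod4 and Zrsr1 (0.832, 0.789 and 0.786). For these 7 members the likeness stayed after each library's own mean was subtracted (r = 0.617 to 0.95). For Myrf, the r of 0.850 with Abca2 became -0.229 within libraries, and for Sox10 the r of 0.759 with Tmem109 became 0.328, so that these 2 patterns lay between libraries. Among the members, Olig1 and Olig2 were alike within libraries (r = 0.944, against 0.554 before the library mean was removed), and Olig1 and Zfp488 were at 0.824.

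Other transcription factors and cofactors of the lineage were read from a list of 44, of which 43 are in the matrix and 29 passed the detection filter. Between KO and WT mice 15 were higher and 14 lower, none passed limma's test, and the median difference was 0.00052 beside 0.0013 over all genes. Its ends were Zfp365, a zinc-finger gene, at 0.18, and Klf9, a thyroid hormone-responsive Krüppel-like factor, at -0.10. Both overlapped between the mice: Klf9 was at 1.00 and 1.17 in WT and 0.62 and 1.35 in KO mice.

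Myelin and myelin-associated genes known as targets of Sox10 or Myrf were read from a list of 20, all of which were tested. In KO mice 12 were higher and 8 lower, with a median difference of 0.01, and none passed. Trf, the iron carrier transferrin, was at the upper end with 0.30 (5.49 and 4.95 in WT, 5.81 and 5.23 in KO mice, overlapping). Of 8 genes of newly formed oligodendrocytes that were tested, 3 were higher and 5 lower, none passing. Enpp6, which marks cells that begin to myelinate, was at 0.65 and 0.67 in WT and 0.91 and 0.77 in KO mice. Both KO mice were thus above both WT mice for Enpp6, where 11.9% of all genes tested had that order. Its difference of 0.18 over all cells was 0.03 in Oligo2, 0.05 in Oligo3 and 0.0078 in Oligo4. Of 8 progenitor markers 2 passed the filter, neither passed the test, and the summed progenitor level was 0.168 to 0.283 UMIs per 10000 in WT and 0.197 to 0.569 in KO libraries.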

How the data were processed

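Oligodendrocytes were sequenced by a droplet-based single-cell method. Per the labels and the study's methods, the authors aligned and counted reads with Cell Ranger 5.0.0 against mm10, kept cells passing their quality filters and clustered the oligodendrocytes; the deposited cells had at least 5039 UMIs and at most 9.99 percent mitochondrial UMIs. Sort gates removed doublets, and doublets were not called again here. The deposited values are log2(UMI count / scran size factor + 1). Whole UMI counts were recovered from all 42420937 deposited values above 0 (tolerance 0.001), and they differed from the deposited per-cell count totals by at most 147 UMIs. Groups came from the sample labels, with the deposited metadata giving cluster and batch, and 0 columns belonged to other samples. The members and lists were chosen with earlier results of these data known.

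Mean log2 values per library were averaged per mouse and compared with limma 3.58.1 (R 4.3.3) over genes detected in 5% of cells or more (mean over libraries), or per cluster over libraries with at least 20 of its cells. A gene was called at an adjusted p under 0.05. Alternatives were edgeR 4.0.16 on UMI sums, log2 of the mean value plus 0.1, a filter at 10% or none, cells pooled by mouse, single tissues, a median centring, blocks, and leaving out each mouse or, chosen after seeing the data, the cortex library of KO mouse 3. Member shares were also computed as the expectation after thinning to 5000 UMIs. Named genes were the 9 members, the 3 genes most like each, genes of a list that passed, and the highest and lowest gene of each list, of which some are not reported here. Scripts were tested on simulated data. Depth was 12015360 to 27847948 UMIs per library. Intervals of the genotype and interaction comparisons cover the spread between mice. Those between the tissues cover the spread between the 8 libraries, without a term for the mouse. Intervals with a block leave out the spread between blocks.

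Mice of the same age were in the same batches. Their deviations from the genotype means had r = 0.742 over 9257 genes, and the hippocampus and cortex deviations of a mouse, which are from the same animal, had r = 0.843 (WT) and 0.853 (KO).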

Additional observations from a re-analysis of the deposited data

Results flagged for a closer look

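Olig2 in the cortex library of KO mouse 3 was far from the others: the gap to the next library divided by the range was 0.864 among the 4 cortex libraries and 0.855 among the 4 KO libraries. St18 was lowest in the same library among the 4 cortex libraries (0.874), at 0.85 against 0.93 to 0.95. Chance gives about 1 such case in 20 groups, and for each of the 9 members the hippocampus, cortex, WT and KO libraries were examined. The part of library quality in these values was not tested.

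Sox8 moved in opposite directions in the pairs of mice: KO minus WT was -0.0846 for mice 1 and 3 and 0.198 for mice 4 and 6 (means of both tissues), each with the same sign in hippocampus and cortex. The difference between the pairs was not tested, since each holds 1 mouse of each genotype.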

How the results depend on the processing

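No member passed the threshold under any of the alternatives run. Counts of genes called over all oligodendrocytes were 8 with edgeR, 2 with log2 of the mean plus 0.1 and 1 without a filter, against 0 in the main comparison. In Oligo2 they were 4 with edgeR and 2 with log2 of the mean plus 0.1, in Oligo3 3, 1 and, without a filter, 1, and in Oligo4 25 and 12. Leaving out each mouse gave 0 in every comparison. With the replicate block (mice of the same age paired, or the mouse for tissues) the counts stayed at 0. Paired in this way, Nkx6-2 had a limma adjusted p of 0.362, and the other members had 0.368 to 0.891 over all oligodendrocytes. The paired intervals there excluded 0 for Nkx6-2 (0.14 to 0.25), Sox2 (-0.080 to -0.026) and St18 (-0.088 to -0.0058), and included 0 for the other members. In this limma fit, 970 of 9257 genes had an unadjusted p under 0.05. Within clusters, paired intervals of some members also excluded 0, at limma adjusted p of 0.646 or more. Of 163 other values of 21 member differences, 7 had the other sign: Olig1 over all oligodendrocytes in cortex alone (0.071) and without Oligo1 (0.037), Olig2 in Oligo4 with edgeR (0.074) and with pooled cells (0.031), and, without the cortex library of KO mouse 3, Olig2 in Oligo2 (0.040), Oligo4 (0.12) and between tissues (-0.026). Of 84 values with a mouse left out, 13 had the other sign. Over all oligodendrocytes the ranges were -0.23 to 0.0061 for Olig2, -0.087 to 0.065 for Olig1, -0.028 to 0.16 for Myrf, -0.051 to 0.17 for Sox8, -0.15 to 0.047 for Sox2, -0.0032 to 0.025 for Zfp488, 0.13 to 0.27 for Nkx6-2, 0.0069 to 0.11 for Sox10 and -0.092 to -0.0016 for St18. For Olig2 they were -0.11 to 0.024 in Oligo2, -0.21 to 0.012 in Oligo3, -0.21 to 0.20 in Oligo4 and -0.018 to 0.12 between tissues. The causes were not tested. The 2 mice in a group limit the precision.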
